A study of Homo sapiens with 6 samples.

Results

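The 10 genes described here are textbook neuronal genes measured in HEK293, a line made from human embryonic kidney cells: the presynaptic scaffolds PCLO and BSN, the neurofilament subunits NEFL, NEFM and NEFH, the related filament protein INA, and the commonly used neuronal markers TUBB3, ENO2, UCHL1 and DPYSL2. They were taken by symbol from a table of 63677 genes, and all 10 were found in it. The list was chosen by measured values as well as by name: PCLO stood out for its higher level in the siRAB3IP libraries, so its differences are given as a description with no test, and the other 9 genes were picked with earlier results of these data in view.

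The series holds 6 libraries of polyA RNA from HEK293 cells that had been transfected with an siRNA and collected after 48 hours. The 3 groups, with 2 libraries each, are control (a control siRNA, NTC in the labels), siRAB3IP (an siRNA against the circular RNA circRAB3IP) and siCAMSAP1 (an siRNA against circCAMSAP1). All 3 groups share the cell line and the RNAiMAX lipid transfection, and no untransfected cells are among them. Whether replicates were grown as separate cultures is not given, so p-values measure only how these libraries spread, and that spread may be technical.

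The group names need a caution that touches every comparison. The authors' deposited tables of normalized values name the libraries one way and the sample titles another: 2 of the 6 libraries carry the same name in both, and 4 do not. A genotype field in the labels disagrees with both: it swaps the knockdown names of the 4 libraries titled as knockdowns, and matches the tables for 3 of the 6. The names of the tables are used here. Which set is right is not given in the sources used here, and the counted polyA RNA does not show the targeted circles, so the knockdown itself could not be read. With the libraries grouped by title, 0 of 22331 genes passed in any of the 3 comparisons by edgeR's quasi-likelihood test, with 350, 441 and 471 genes at an unadjusted p under 0.05, and none of the 9 neuronal genes tested was among them. By the genotype field the same libraries are compared with the knockdown names exchanged. Values per library do not depend on the names, except that replicates are named within these groups.

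Depth ran from 37379217 to 39637733 fragments assigned to genes. Levels are given in CPM, which are assigned fragments scaled to a common library total, and a count of 3 fragments, taken as the floor, corresponds to 0.0757 to 0.0803 CPM. Levels of different genes are compared as CPM per kb of exon, except that markers of cell types are named by CPM. Differences are log2 fold changes with their standard errors (SE) from edgeR's quasi-likelihood test, called where the Benjamini-Hochberg adjusted p over 22331 genes was under 0.05. In these bulk libraries, fewer cells with a transcript and less of it per cell cannot be told apart.

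Neurons are recognised by proteins that build their synapses and axons. PCLO and BSN are giant scaffold proteins of the active zone, the patch of presynaptic membrane where vesicles fuse. Neurofilaments are assembled from NEFL with NEFM, NEFH and INA and set the calibre of axons. Many neuronal genes are silenced in other cells by the repressor REST, which binds a DNA element called RE1. HEK293 cells are known to express a range of neuronal transcripts although they are grown from kidney tissue.

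Most neuronal markers outside the 10 genes were low or absent. Of 16 neuronal markers, 5 had a mean of at least 1 CPM, and the vesicular glutamate transporter SLC17A6 and the axonal regulator STMN2 had 0 fragments in all 6 libraries. The 3 highest in CPM, with no regard to exon length, were the GABA-synthesising enzyme GAD1 (11.4), tau (MAPT, 6.31) and the vesicle calcium sensor SYT1 (6.28). Per kb of exon the order differs, with GAP43 at 2.24 CPM per kb, GAD1 at 1.39, SYT1 at 0.967 and MAPT at 0.423. The markers' summed level was 30.4 to 36.8 CPM in control, 29 to 35.1 in siRAB3IP and 32.0 to 33.2 in siCAMSAP1, so the groups overlapped. Of 8 kidney epithelial markers 2 reached 1 CPM (LHX1 with 6.55 and AQP1 with 1.04), with UMOD at 0 fragments, and their summed level was 8.69 to 10.2 CPM in control, 6.39 to 6.53 in siRAB3IP and 10.2 to 11.1 in siCAMSAP1. No adrenal or neuroendocrine marker of 9 reached 1 CPM, against 3 of 8 glial markers (MBP with 18.8, GFAP with 2.11 and OLIG2 with 1.72) and 4 of 6 fibroblast markers (COL3A1 with 8.78, COL1A1 with 8.24 and LUM with 6.41). Single markers moved with siRAB3IP, where 6.39% of all genes tested were called higher and 5.24% lower. The markers tested were 7 of 16 neuronal, 5 of 8 glial, 4 of 8 kidney, 2 of 9 adrenal or neuroendocrine and 4 of 6 fibroblast ones. LHX1 fell in siRAB3IP by 0.81 on the log2 scale (adjusted p = 0.00356), and COL1A1 fell by 0.79 (adjusted p = 0.00404). Of the neuronal markers, MAPT was lower (-0.77 ± 0.21, adjusted p = 0.0338) and the growth cone protein GAP43 higher (0.72 ± 0.21, adjusted p = 0.0438). No other tested marker of the lists passed there. The medians over the few markers tested were 0.11 for kidney, -0.36 for fibroblast and 0.05 for neuronal ones. Against siCAMSAP1, LHX1 and COL1A1 were at -1.02 ± 0.14 and -1.03 ± 0.14 (adjusted p = 0.00105 and 0.000991). The part of these markers in the results below was not tested.

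The 10 neuronal genes spanned several orders of magnitude in the control libraries. Per kb of exon, UCHL1 stood highest with 164 ± 13.9 CPM per kb (SD, n = 2), followed by NEFL with 40.0 ± 3.93, DPYSL2 with 7.32 ± 1.37 and ENO2 with 5.66 ± 0.829. PCLO (0.916 ± 0.135), INA (0.491 ± 0.0431), BSN (0.227 ± 0.00943) and TUBB3 (0.208 ± 0.0146) lay around or under 1 CPM per kb. NEFH with 0.111 ± 0.0629 and NEFM with 0.0265 ± 0.0115 came last. TUBB3 and NEFM may read too low, since fragments on exon bases they share with other genes were left uncounted. Neighbours in this order did not overlap between the 2 control libraries, but over all 6 libraries DPYSL2 and ENO2, PCLO and INA, BSN and TUBB3, TUBB3 and NEFH, and NEFH and NEFM did.

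**Figure D1:**
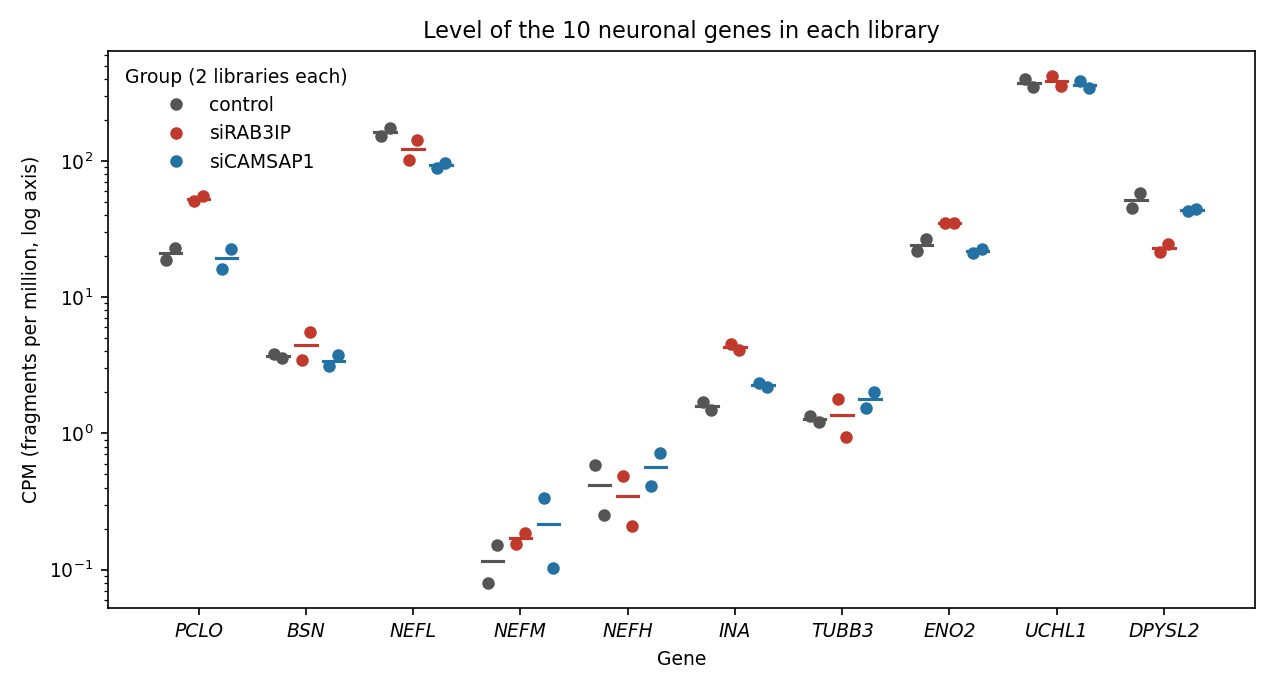
Level of each gene in CPM (log axis) in the 6 libraries, grouped by gene and coloured by group; points are libraries and short lines are group means of 2 libraries. PCLO and INA sit higher and DPYSL2 lower in both siRAB3IP libraries than in the other 4, while UCHL1 stays between 343 and 420 CPM.

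Of the 8 genes tested beside PCLO, 2 were called higher in siRAB3IP (INA and ENO2) and 1 lower (DPYSL2), where 6.39% of all genes tested were called higher and 5.24% lower. In siCAMSAP1, 1 of the 8 was called lower (NEFL) and 0 higher, where 0.493% of all genes were called lower and 0.448% higher, and 2 of the 8 had an unadjusted p under 0.05. DESeq2 called 1 of the 8 there too, likewise NEFL. Between the knockdowns, the siRAB3IP libraries had 2 of the 8 called higher and 1 lower, against 4.89% and 3.96% of all genes. The 3 comparisons share libraries. The shares given here and below are over all genes tested, of any level. In a fit of only the 11783 genes averaging 5 CPM or more, 1183 were called higher and 1172 lower in siRAB3IP. The median log2 fold change of the 8 was 0.14 in siRAB3IP, -0.05 in siCAMSAP1 and 0.27 between the knockdowns, beside -0.01, 0.00 and -0.01 over all genes.

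**Figure D2:**
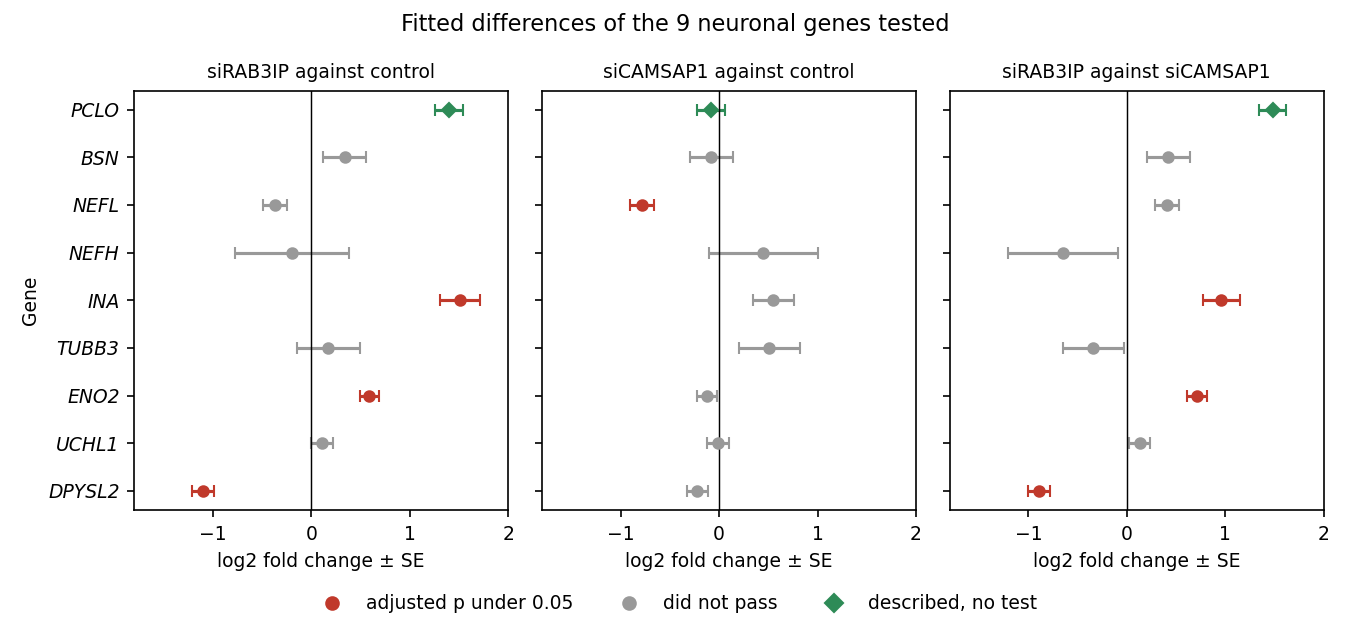
Fitted log2 fold change ± SE of the 9 genes past the filter in each comparison; red points passed an adjusted p of 0.05, grey ones did not, and the green diamonds of PCLO carry no test. INA and ENO2 lie to the right and DPYSL2 to the left of 0 in both panels that use the siRAB3IP libraries, and NEFL passed in siCAMSAP1 against control.

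Among the presynaptic scaffolds, PCLO (piccolo, hg19 chromosome 7, 82383329 to 82792246, minus strand) read 18.8 and 23.1 CPM in control, 50.5 and 55.2 in siRAB3IP, and 16.1 and 22.6 in siCAMSAP1. Both siRAB3IP libraries lay above the other 4. The difference from control was 1.40 ± 0.14 (SE) on the log2 scale, a 2.64-fold higher level, and the difference from siCAMSAP1 was 1.48 ± 0.14. Between siCAMSAP1 and control the difference was -0.08 ± 0.14, likewise given with no test because these libraries set the choice too. The authors' deposited table for siRAB3IP gives PCLO a log2 fold change of 1.41 ± 0.12.

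BSN (bassoon, hg19 chromosome 3, 49591922 to 49708978, plus strand), the partner of piccolo at the active zone, did not pass in any comparison. It read 3.80 and 3.58 CPM in control, 3.44 and 5.54 in siRAB3IP, and 3.12 and 3.73 in siCAMSAP1. The second siRAB3IP library was high and the first lay within the control and siCAMSAP1 range. The log2 fold change was 0.34 ± 0.22 (adjusted p = 0.357) in siRAB3IP and -0.08 ± 0.22 (adjusted p = 0.932) in siCAMSAP1.

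Around these scaffolds, 32 genes of the active zone and of vesicle release were listed and 26 were tested. In siRAB3IP 2 rose and 0 fell, a share of 7.69% that is near the 6.39% of all genes called higher. RIMS1, a scaffold that tethers vesicles and calcium channels, read 2.01 and 2.04 CPM in control, 3.56 and 3.75 in siRAB3IP, and 2.07 and 2.40 in siCAMSAP1, a log2 fold change of 0.92 ± 0.19 in siRAB3IP (adjusted p = 0.00987). RIMS4, a short relative of it, read 41.0 and 44.1 CPM in control, 51.6 and 58.9 in siRAB3IP, and 41.1 and 44.6 in siCAMSAP1, a log2 fold change of 0.44 ± 0.09 (adjusted p = 0.00706). The other two of the family did not pass (1.06 ± 0.55 for RIMS2 and -0.14 ± 0.17 for RIMS3). RIMS1 and RIMS4 also passed against siCAMSAP1, with adjusted p of 0.0302 and 0.0144. In siCAMSAP1 none of the 26 passed, and the list's median was 0.04 in siRAB3IP and 0.00 in siCAMSAP1.

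Among the filament genes, INA was called in siRAB3IP and NEFL in siCAMSAP1. NEFL, the light subunit that neurofilaments need in order to assemble, is on chromosome 8 and was the most abundant of the 4. It read 152 and 175 CPM in control, 101 and 142 in siRAB3IP, and 88.7 and 97.1 in siCAMSAP1. All 4 knockdown libraries lay under both control libraries, and the siCAMSAP1 pair was the lowest. NEFL fell by 0.78 on the log2 scale in siCAMSAP1 (a log2 fold change of -0.78 ± 0.12, adjusted p = 0.0134). That call ended without the first siCAMSAP1 library (-0.73, adjusted p = 0.0539) and, under edgeR's robust estimation, without any one of the 4 libraries compared (adjusted p from 0.0524 to 0.19).

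In siRAB3IP the difference of NEFL was -0.37 ± 0.12 and did not pass (adjusted p = 0.0773). It passed without a filter on low counts (adjusted p = 0.00568), by DESeq2 (0.0434), with a replicate block (0.000764) and without the second siRAB3IP library (-0.62, adjusted p = 0.0107). Without the first siRAB3IP library it shrank to -0.15 (adjusted p = 0.507), so the value rests on which of those 2 libraries is kept. Between the knockdowns, NEFL was 0.41 ± 0.12 higher in siRAB3IP than in siCAMSAP1 on the log2 scale (adjusted p = 0.0574), which passed by DESeq2 (0.0148) and without the first siRAB3IP library (0.63, adjusted p = 0.00666), and was 0.16 (adjusted p = 0.518) without the second. The authors' deposited tables list NEFL for both knockdowns, with -0.37 ± 0.10 (adjusted p = 0.00318) in siRAB3IP and -0.77 ± 0.08 (adjusted p = 3.39e-19) in siCAMSAP1.

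INA (alpha-internexin, hg19 chromosome 10, 105036920 to 105050108, plus strand), a filament protein that joins neurofilaments in the central nervous system, rose in siRAB3IP. It read 1.69 and 1.49 CPM in control, 4.56 and 4.12 in siRAB3IP, and 2.35 and 2.19 in siCAMSAP1. The 3 groups did not overlap: control was lowest, siCAMSAP1 between and siRAB3IP highest. The log2 fold change was 1.51 ± 0.20 in siRAB3IP (2.86-fold, adjusted p = 0.000733), and 0.55 ± 0.21 in siCAMSAP1, which did not pass (adjusted p = 0.307). The direct difference between the knockdowns was 0.96 ± 0.19 (adjusted p = 0.00872), and this call ended without the first siRAB3IP library (0.87, adjusted p = 0.062) or the second siCAMSAP1 library (0.91, adjusted p = 0.058).

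NEFM and NEFH, the medium and heavy subunits, had few fragments. NEFM lay at or close above the floor of 3 in several libraries, and NEFH lay above it in all 6. NEFM had 3 and 6 fragments in control, 6 and 7 in siRAB3IP, and 13 and 4 in siCAMSAP1, failed the filter on low counts and was not tested. NEFH (hg19 chromosome 22, 29876219 to 29887379, plus strand) had 22 and 10 fragments in control, 19 and 8 in siRAB3IP, and 16 and 28 in siCAMSAP1. Its groups overlapped, and its log2 fold changes were -0.20 ± 0.58 in siRAB3IP (adjusted p = 0.878) and 0.45 ± 0.55 in siCAMSAP1 (adjusted p = 0.817). A change of NEFH was therefore not detectable at this depth unless it was large beside those errors.

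Of the summed level per kb of the 4 filament genes, NEFL made up 98.2% and 98.7% in control, 94.0% and 96.2% in siRAB3IP, and 96.0% and 96.4% in siCAMSAP1. The share of INA was 1.38% and 1.06% in control, 5.38% and 3.53% in siRAB3IP, and 3.22% and 2.75% in siCAMSAP1. Both knockdown pairs thus held a smaller share of NEFL and a larger share of INA than either control library.

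Of 9 other intermediate filament genes, none passed in siCAMSAP1. In siRAB3IP 1 rose and 0 fell, beside 6.39% of all genes called higher and 5.24% lower. The one that rose was SYNM, a large filament protein that co-assembles with vimentin and desmin, with 25.5 and 26.4 CPM in control, 41.3 and 46.5 in siRAB3IP, and 30.9 and 33.6 in siCAMSAP1 (0.82 ± 0.09 in siRAB3IP, adjusted p = 0.000255). SYNM and vimentin (VIM) were both higher in siRAB3IP than in siCAMSAP1, by 0.47 ± 0.09 (adjusted p = 0.00652) and 0.56 ± 0.14 (adjusted p = 0.0279). PRPH, the peripheral neuronal filament protein, read 1.62 CPM over the 6 libraries and did not pass. SYNM shares 27.7%, VIM 25.4% and PRPH 56.2% of its exon bases with antisense genes. The counting ignored strand and left out fragments that overlap 2 genes.

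ENO2 (neuron-specific enolase, hg19 chromosome 12, 7022909 to 7032861, plus strand), a glycolytic enzyme used as a serum marker of neuronal injury, rose in siRAB3IP. It read 21.7 and 26.7 CPM in control, 35.1 and 34.8 in siRAB3IP, and 21.0 and 22.6 in siCAMSAP1. Both siRAB3IP libraries lay above the other 4. The log2 fold change was 0.59 ± 0.10 in siRAB3IP (1.51-fold, adjusted p = 0.00303), -0.12 ± 0.10 in siCAMSAP1 (adjusted p = 0.705), and 0.71 ± 0.10 between the knockdowns (adjusted p = 0.00123). The authors' deposited table for siRAB3IP gives 0.60 ± 0.14 for ENO2 and 1.52 ± 0.34 for INA.

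No other enolase was called. ENO1, the ubiquitous form, stood at 701 CPM per kb over the 6 libraries beside 6.30 for ENO2, 0.783 for the muscle form ENO3 and 0.682 for ENO4. ENO2 made up 0.685% and 0.972% of the 4 enolases' summed level per kb in control, 1.10% and 1.2% in siRAB3IP, and 0.641% and 0.772% in siCAMSAP1. None of ENO1, ENO3 and ENO4 passed in any comparison, with log2 fold changes of 0.09 ± 0.11, 0.15 ± 0.18 and -0.07 ± 0.24 in siRAB3IP. The adjusted p of ENO1 there was 0.634.

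PCLO, INA and ENO2 were the 3 genes that stood higher in siRAB3IP, and their promoters are shown because REST is known to hold neuronal genes silent through RE1. The windows are the 250 bases before each RefSeq start (GRCh38.p14), read 5′ to 3′ on the gene's strand: PCLO at chr7:83162885-83163134, minus strand, INA at chr10:103276888-103277137, plus strand, and ENO2 at chr12:6914330-6914579, plus strand. Capitals mark matches to the words searched for on either strand. They are in INA the right part of RE1 (GGACAG, here as its reverse complement) and in ENO2 the AP-1 word (TGANTCA).
PCLO: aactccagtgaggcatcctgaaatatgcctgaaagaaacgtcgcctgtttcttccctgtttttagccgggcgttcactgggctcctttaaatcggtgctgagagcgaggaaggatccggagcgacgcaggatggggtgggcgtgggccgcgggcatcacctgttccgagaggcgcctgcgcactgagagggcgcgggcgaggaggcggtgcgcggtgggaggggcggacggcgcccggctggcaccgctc
INA: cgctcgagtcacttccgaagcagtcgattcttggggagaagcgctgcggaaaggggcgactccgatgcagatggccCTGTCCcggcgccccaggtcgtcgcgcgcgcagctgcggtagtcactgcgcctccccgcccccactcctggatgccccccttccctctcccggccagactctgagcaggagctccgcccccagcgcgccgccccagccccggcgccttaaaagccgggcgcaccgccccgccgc
ENO2: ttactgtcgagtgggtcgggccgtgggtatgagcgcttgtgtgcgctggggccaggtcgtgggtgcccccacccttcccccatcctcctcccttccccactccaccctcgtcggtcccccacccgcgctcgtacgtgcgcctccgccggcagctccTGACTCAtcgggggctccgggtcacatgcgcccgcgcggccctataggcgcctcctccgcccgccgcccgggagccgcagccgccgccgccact
The 3 windows are rich in G and C, with 65.6% in PCLO, 72.8% in INA and 74.0% in ENO2 beside a median of 58.0% over 35116 RefSeq windows of the same length. The left part of RE1 (TTCAGCACC) was in none of the 7 windows found for 6 of the 10 genes, and in 0.288% of all windows. The right part was in 3 of the 7 (BSN, INA and TUBB3) and in 17.2% of all, and both parts spaced by 2 bases were in none of the 7 and in 0.0142% of all. The AP-1 word was in 2 of the 7 (ENO2 and TUBB3) and in 6.57% of all. The CRE word (TGACGTCA) and a word for NF-kB were in none of the 7, and in 1.65% and 1.40% of all. A match is a description of letters and not a binding site, and binding was not measured here. A missing match says only that the exact word is not in these 250 bases, and does not show that a gene lacks RE1.

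REST itself did not pass in any comparison. It read 88.9 and 102 CPM in control, 86.5 and 89.4 in siRAB3IP, and 81.7 and 93.3 in siCAMSAP1, with log2 fold changes of -0.06 ± 0.09 and -0.09 ± 0.09. Of the 13 genes of REST and its cofactors, none passed in siCAMSAP1. In a fit of only the 11783 genes averaging 5 CPM or more, 1183 were called higher and 1172 lower in siRAB3IP. All of the 13 but RCOR2 (3.44 CPM) averaged above that level. In siRAB3IP 1 of the 13 rose and 3 fell, beside 6.39% of all genes called higher and 5.24% lower. Those that fell were the phosphatase CTDSP2 (-0.40 ± 0.08, adjusted p = 0.00908), the CoREST family member RCOR3 (-0.38 ± 0.10, 0.0302) and the scaffold SIN3A (-0.31 ± 0.08, 0.0260), and the phosphatase CTDSPL rose (0.32 ± 0.09, 0.0355). Between the knockdowns SIN3A and the histone methyltransferase EHMT2 were lower in siRAB3IP, with log2 differences of -0.29 ± 0.08 (adjusted p = 0.0433) and -0.32 ± 0.08 (0.0327).

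DPYSL2 (CRMP2, on chromosome 8), a tubulin-binding protein that promotes axon growth, fell in siRAB3IP, opposite to PCLO, INA and ENO2. It read 44.8 and 58.5 CPM in control, 21.5 and 24.4 in siRAB3IP, and 42.6 and 44.1 in siCAMSAP1. Both siRAB3IP libraries lay far under the other 4. The log2 fold change was -1.10 ± 0.11 in siRAB3IP (0.465 of the control level, adjusted p = 0.000134), -0.22 ± 0.11 in siCAMSAP1 (adjusted p = 0.449), and -0.89 ± 0.11 between the knockdowns (adjusted p = 0.000553). The authors' deposited table for siRAB3IP gives -1.09 ± 0.12.

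None of the relatives of DPYSL2 was called lower in siRAB3IP. DPYSL3 read 93.6 and 94.6 CPM in control, 103 and 104 in siRAB3IP, and 73.3 and 70.4 in siCAMSAP1. It was higher in siRAB3IP than in siCAMSAP1 by 0.56 ± 0.08 (adjusted p = 0.000973). Against control it did not pass, with 0.20 ± 0.08 in siRAB3IP (adjusted p = 0.108) and -0.36 ± 0.08 in siCAMSAP1 (adjusted p = 0.0502). DPYSL5, CRMP1 and DPYSL4 did not pass in any comparison, with log2 fold changes in siRAB3IP of 0.17 ± 0.08, -0.06 ± 0.18 and -0.02 ± 0.26. DPYSL2's share of the 5 genes' summed level per kb was 21.1% and 25.5% in control, 10.5% and 11.7% in siRAB3IP, and 21.3% and 22.4% in siCAMSAP1.

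Annotated 3′ ends add a value beside these differences. The word TGACTTAA, picked because earlier results of these data tied it to falls in siRAB3IP, is in the 3′ UTR of 5.04% of 14215 tested genes with one (GENCODE 29). Of its carriers 17.6% were called lower in siRAB3IP, against 6.43% of the other genes. Because the word was picked on these falls, the contrast is a description with no test. Of the 10 neuronal genes, DPYSL2, which fell, and PCLO, which stood higher, hold it. The part of the word in either difference was not tested.

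UCHL1 (hg19 chromosome 4, 41258430 to 41270472, plus strand), a deubiquitinating enzyme that is among the most abundant proteins of neurons, was the steadiest of the 10. It read 397 and 352 CPM in control, 420 and 357 in siRAB3IP, and 384 and 343 in siCAMSAP1. The groups overlapped, with the first library the higher one in each. The log2 fold changes were 0.11 ± 0.11 in siRAB3IP (adjusted p = 0.56) and -0.01 ± 0.11 in siCAMSAP1 (adjusted p = 0.978). UCHL1 held 81.5% to 83.7% of the summed level per kb of its 4-gene family, ahead of BAP1 with 20.2 CPM per kb, UCHL5 with 8.95 and UCHL3 with 5.25, none of which passed in any comparison.

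TUBB3, the beta tubulin that antibodies to neurons most often detect, read among the lowest of the 10, in a count that leaves out part of the gene. It read 1.34 and 1.21 CPM in control, 1.80 and 0.945 in siRAB3IP, and 1.54 and 2.02 in siCAMSAP1. The siRAB3IP pair spanned the control pair, and both siCAMSAP1 libraries lay above it. The log2 fold changes were 0.17 ± 0.32 in siRAB3IP (adjusted p = 0.796) and 0.51 ± 0.31 in siCAMSAP1 (adjusted p = 0.583).

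The TUBB3 count leaves out part of the gene. In the annotation the authors counted with, 1584 of its exon bases (25.8%) also belong to ENSG00000198211 on the same strand, including the stretch on hg19 chromosome 16 from 90001137 to 90002500. Fragments that overlap 2 genes were left uncounted, and ENSG00000198211 has 0 fragments in all 6 libraries. The 25.8% is of all annotated exon bases of TUBB3, and a single transcript may lose a larger share. Of the other members, NEFM shares 39.0%, NEFL 12% and UCHL1 5.92% of its exon bases with antisense genes, and PCLO, BSN, NEFH, INA, ENO2 and DPYSL2 share none.

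Among the beta tubulins TUBB3 read last of those detected. Its reading may be too low by an unknown amount, since fragments on its shared exon bases were left uncounted. TUBB and TUBB4B stood at 361 and 350 CPM per kb, TUBB2A at 43.4, TUBB6 at 23.6, TUBB2B at 15.9, TUBB4A at 1.02 and TUBB1 at 0.605, beside 0.240 for TUBB3, and TUBB8 had 0 fragments. In siRAB3IP 2 of the 7 relatives tested fell and 0 rose, beside 5.24% of all genes called lower and 6.39% higher. TUBB4A, the oligodendrocyte and neuron form, read 4.07 and 5.30 CPM in control, 1.74 and 2.18 in siRAB3IP, and 4.07 and 3.85 in siCAMSAP1 (-1.19 ± 0.20 in siRAB3IP, adjusted p = 0.00267), and TUBB2B fell by 0.46 on the log2 scale (adjusted p = 0.00752). Near-identical tubulin copies share sequence, and the counting kept primary alignments of reads that map to several places, so the split between copies is uncertain.

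**Figure D3:**
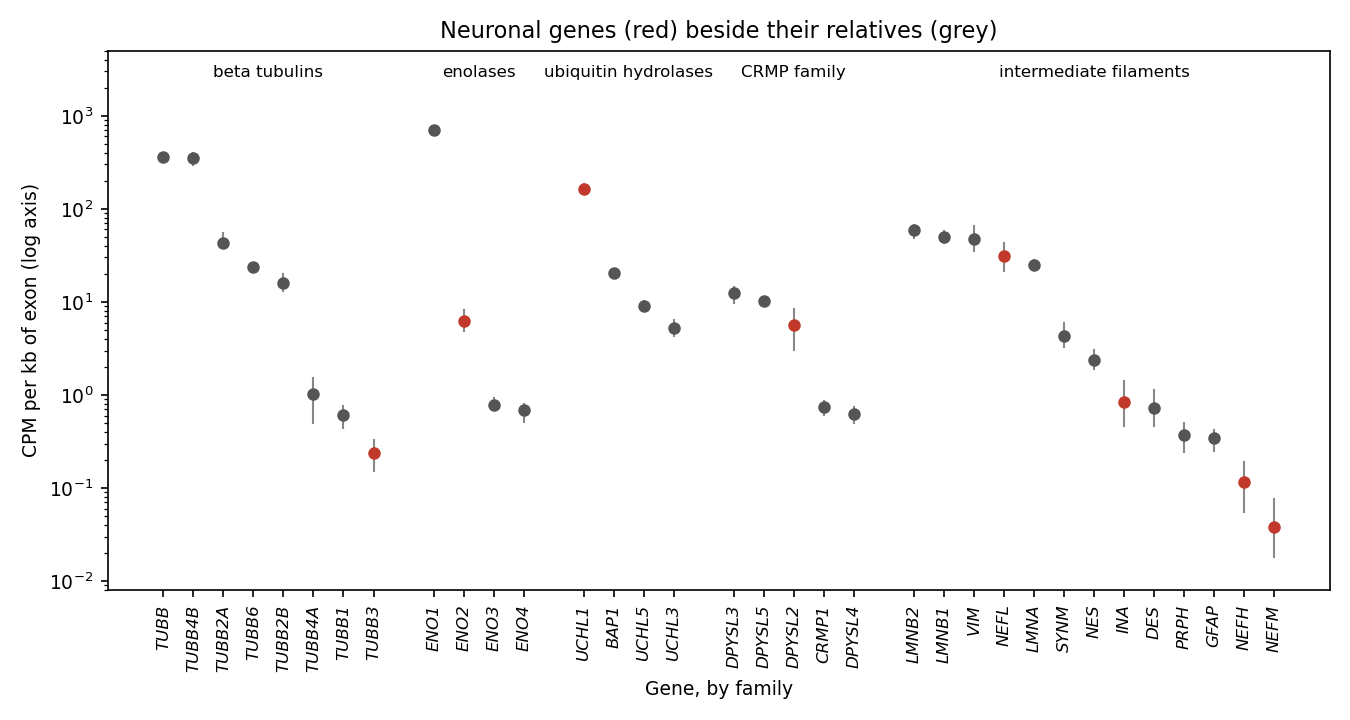
Mean level in CPM per kb of exon (log axis) of the neuronal genes (red) and their relatives (grey) over 6 libraries, by family and in falling order; vertical lines run from the lowest to the highest library. UCHL1 leads its family with 165 CPM per kb, whereas ENO2 (6.30) and TUBB3 (0.240) lie far under ENO1 (701) and TUBB (361). The TUBB3 level leaves out fragments on exon bases shared with another gene and may be too low.

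Genes that handle neurofilaments and axons moved both ways. Of 15 tested in siRAB3IP, 3 rose and 3 fell, beside 6.39% of all genes called higher and 5.24% lower. In siCAMSAP1 1 rose and 0 fell, beside 0.448% and 0.493% of all genes. The growth cone protein GAP43 (0.72 ± 0.21, adjusted p = 0.0438) and CDK5R1, the activator of the neurofilament kinase CDK5 (0.58 ± 0.11, 0.00588), rose in siRAB3IP, as did MAP1B. Tau (MAPT, -0.77 ± 0.21, adjusted p = 0.0338) and the small heat shock protein HSPB1 (-0.71 ± 0.10, 0.00105) fell there, as did TRIM2, a ubiquitin ligase for NEFL. KIF5C, a neuronal kinesin that carries neurofilaments, rose in siCAMSAP1 with 20.8 and 16.7 CPM against 9.82 and 12.4 in control (0.78 ± 0.16, adjusted p = 0.0372), and averaged 8.82 ± 1.67 CPM (SD, n = 2) in siRAB3IP.

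Of 22 neuronal transcription and RNA-binding regulators, 11 were tested. In siRAB3IP 1 fell and 0 rose, beside 5.24% of all genes called lower and 6.39% higher. It was PTBP2, the neuronal polypyrimidine tract binding protein (-0.37 ± 0.10, adjusted p = 0.0379). In siCAMSAP1 1 fell and 0 rose, beside 0.493% of all genes called lower and 0.448% higher. It was the transcription factor SOX4 (-0.55 ± 0.10, adjusted p = 0.0234). SOX4 and SOX11 were higher in siRAB3IP than in siCAMSAP1, by 0.37 ± 0.10 (adjusted p = 0.0357) and 0.51 ± 0.13 (0.0250). The list's median was -0.16 in siRAB3IP and -0.14 in siCAMSAP1.

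**Figure D4:**
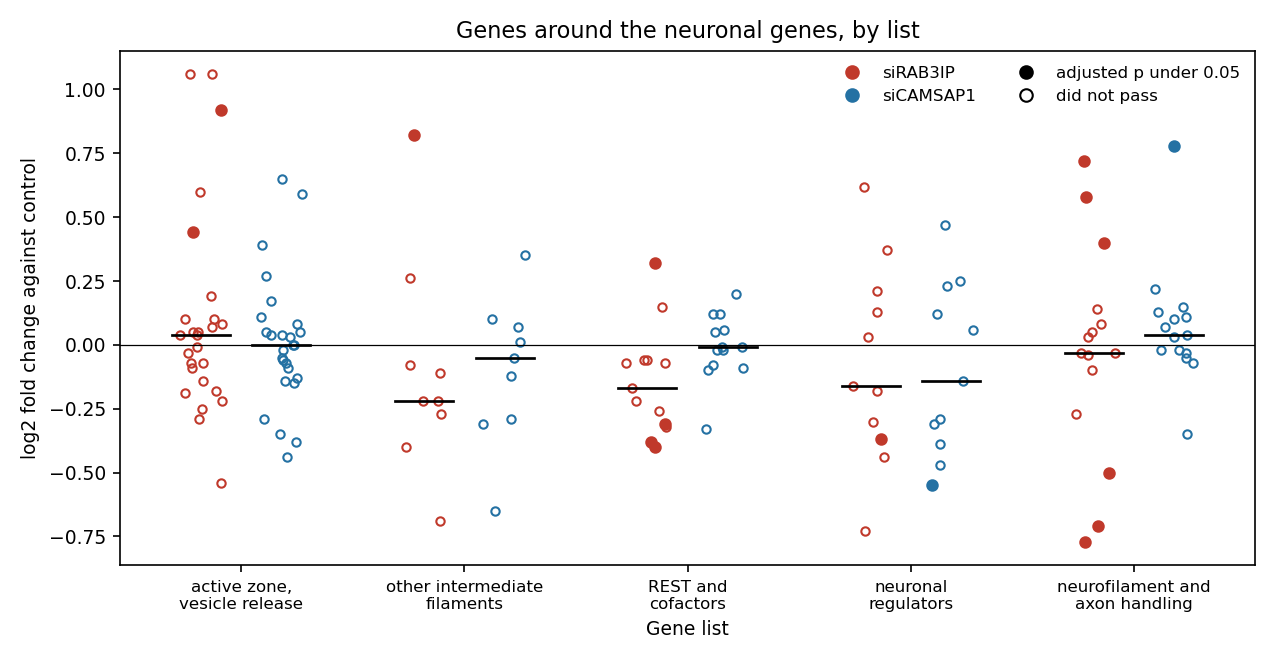
Log2 fold change against control of the genes tested in 5 lists around the neuronal genes, in siRAB3IP (red) and siCAMSAP1 (blue); filled points passed an adjusted p of 0.05 and black lines are list medians. The medians lie between -0.22 and 0.04, and the axon list holds 3 risen and 3 fallen genes in siRAB3IP.

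Over the 6 libraries, the 5 genes averaging 5 CPM or more whose centred log2 profiles lay nearest to PCLO were DNAH6 (an axonemal dynein chain, distance 0.28), the ribosomal protein pseudogene RPLP0P2 (0.46), the cystine transporter SLC7A11 (0.49), the kinase UHMK1 (0.55) and the matrix protein EMILIN2 (0.57). DNAH6 read 4.87 and 6.23 CPM in control, 10.8 and 13.1 in siRAB3IP, and 4.07 and 5.15 in siCAMSAP1. RPLP0P2 may share reads with its parent gene and is uncertain. None of the 5 is a neuronal gene of the list, but INA, BSN, TUBB3, NEFH and NEFM averaged under 5 CPM and could not appear. The profile of PCLO holds the siRAB3IP rise on which it was chosen, so its neighbours are a description with no test. By the same measure INA lay at 0.90 and ENO2 at 0.96 from PCLO, BSN, its partner, at 1.38, and DPYSL2 farthest at 2.84.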

How the data were processed

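The data are gene counts of polyA RNA in 6 HEK293 libraries. Per the file headers, the authors counted read pairs with featureCounts 1.6.0 on an hg19 annotation, keeping primary alignments, without strand and without fragments that overlap several genes, and deposited raw counts per gene; STAR and DESeq2 are named in the submitters' processing notes, and their settings were not given. The authors' deposited tables also hold log2 fold changes, adjusted p-values and normalized signal per library; all 8 signal columns matched the count columns of the same group and replicate (tolerance 1e-09 on the log2 ratio).

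CPM and counts per exon length were computed from the counts. Symbols were found for 52560 of 63677 gene IDs, in the deposited tables, a gene name table and GENCODE 29. Tests were run with R 4.3.3 and edgeR 4.0.16: genes passing filterByExpr were scaled by TMM and fitted in 1 quasi-likelihood model of 3 groups with default settings, and p-values were adjusted by Benjamini-Hochberg. The design did not fix whether the fit should be robust; both were run, and a robust fit, tried because it gave the 2671 calls known from earlier work against 2597 by default, is kept as an alternative added after seeing the data. The script was tested on simulated data: it recovered 73% of 1.5-fold and 97% of 2-fold changes in siRAB3IP, and 77% and 91% in siCAMSAP1, and 9.6% and 9.2% of its calls were unchanged genes. The changed genes were drawn only from those above a set expected count, so the recovery does not cover genes of few fragments such as NEFH and NEFM. Depth sets the precision of each count, and floors cover counting error only.

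The members and lists were chosen with earlier results of these data known. The named genes are all 10 members, every measured paralog, up to 4 called genes per list and comparison (largest change, mean of at least 1 CPM), up to 3 markers a list, and the 5 nearest profiles to PCLO. MAP1B and TRIM2 in siRAB3IP were named after their values were seen, and the AP-1, CRE and NF-kB words and the 3′ UTR word were also added then. Alternatives were other scalings, filters, DESeq2 1.42.0, limma-voom (limma 3.58.1), each pair of groups alone, a replicate block, leaving out each library, and grouping by titles. Promoters are RefSeq's. Python 3.11.15 with pandas 2.3.3 was used.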

Additional observations from a re-analysis of the deposited data

How the results depend on the processing

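With 2 libraries a group, calls among genes of few fragments (NEFH, TUBB3 and NEFM) are limited by depth, and which library names are right limits every difference. INA, ENO2 and DPYSL2 kept direction and call in siRAB3IP against control under all alternatives other than grouping by titles, except that INA was under the stricter filter of a mean of 5 CPM and has no value there. Robust estimation gave 2671, 237 and 2076 genes called in siRAB3IP, siCAMSAP1 and between the knockdowns, beside 2597, 210 and 1977, and changed no call of the members tested.

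Grouped by sample titles, 0 genes and 0 of the 9 were called in each comparison (unadjusted p under 0.05 for 350, 441 and 471 genes). The log2 fold changes then reversed in siRAB3IP for PCLO (-0.88), BSN (-0.16), NEFL (0.01), INA (-0.75), TUBB3 (-0.24), ENO2 (-0.31), UCHL1 (-0.20) and DPYSL2 (0.56). In siCAMSAP1 they reversed for PCLO (0.15), BSN (0.34), NEFH (-0.23), INA (-0.01), TUBB3 (-0.10) and DPYSL2 (0.04), with NEFL at -0.09, and between the knockdowns for PCLO (-1.03), BSN (-0.50), INA (-0.74), ENO2 (-0.30) and DPYSL2 (0.53). The genotype field exchanges the knockdown names of this grouping, so the siRAB3IP and siCAMSAP1 values change places and those between the knockdowns change sign.

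The replicate block gave 5371, 1408 and 4630 genes called, and added to the 9 genes' calls NEFL in siRAB3IP (-0.38) and between the knockdowns (0.40). Same-numbered libraries deviated together (correlations 0.44 to 0.53 over 11783 genes), but the labels do not say that a number pairs them. In siCAMSAP1, 560 genes were called with no filter and 382 by DESeq2. Without 1 library, the genes called ran from 1034 to 2491 in siRAB3IP, 67 to 210 in siCAMSAP1 and 620 to 2296 between the knockdowns, and members called in siCAMSAP1 from 0 to 1.

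Leaving out 1 library reversed only differences that had not passed. Against control in siRAB3IP the values ran from -0.03 to 0.64 for BSN, -0.94 to 0.56 for NEFH, -0.38 to 0.57 for TUBB3 and -0.02 to 0.24 for UCHL1. NEFH also turned positive (0.29) without the second siRAB3IP library. In siCAMSAP1 they ran from -0.34 to 0.13 for PCLO (0.04 without the second control library), -0.20 to 0.03 for BSN, -0.07 to 1.21 for NEFH, -0.23 to 0.00 for ENO2 and -0.13 to 0.11 for UCHL1 (0.08 without the second siCAMSAP1 library). Between the knockdowns they ran from -0.89 to 0.06 for TUBB3 and -0.01 to 0.25 for UCHL1. The cause was not tested.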
